A study of Mus musculus with 16 samples.

Results

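The difference between haematopoietic stem cells (HSCs) of endosteal and central bone marrow (BM) was examined as 1 effect over WT and Gfra2-/- mice, in 15 of the 16 RNA-Seq samples of the series. A gene counted as shared when the additive model of genotype and compartment gave it an FDR under 0.1 and its difference had the same sign within each genotype. Of 46078 genes in the table, 13789 had enough reads to be tested, and 4 of them (H19, Gm42418, Clec7a and Rplp1) met this rule. All 4 were lower in endosteal HSCs, which is 0.029% of the genes tested, and 0% of the genes tested passed in the opposite direction. With the weaker rule of an unadjusted p under 0.05 and the same direction within each genotype, 74 genes were shared.

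HSCs were LSK CD48-CD150+ cells of untreated C57/Bl6 mice, sorted in pools of 30. The 4 groups were WT endosteal (4 libraries), WT central (4 libraries), Gfra2-/- endosteal (4 libraries) and Gfra2-/- central HSCs (3 libraries), and Gfra2-/- mice lack the receptor GFRα2. Endosteal cells came from the bone fraction of long bones that was left after the marrow had been flushed out, and central cells from that marrow. The sources used here give no age of the mice and do not say how many mice stand behind a pool. The libraries of a group are lettered A to D, and a letter is only a name.

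The haematopoietic stem cell is the rare, mostly quiescent cell from which all blood lineages are renewed, and the marrow offers it several surroundings. The endosteum is the cell layer lining the inner bone surface, where bone-forming cells lie. The central marrow is filled with sinusoids and with perivascular stromal cells. In both places the decision between rest and division depends on growth-restraining imprinted genes, on the rate of protein synthesis and on the cell-cycle machinery, and the genes below are ordered by these roles.

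Gene totals ranged from 4416648 to 14003634 counts in WT endosteal and from 826487 to 3367289 in WT central libraries, and the ranges did not overlap (p = 0.0286, exact two-sided permutation test, the smallest that 4 against 4 libraries can give). In libraries labelled Gfra2-/- they ranged from 8519094 to 18550008 in endosteal and from 7649803 to 14716308 in central samples (exact permutation p = 0.429). Compartment and depth therefore cannot be told apart within WT. Gfra2 had 0 to 4 counts in the WT libraries and 0 or 1 in the central libraries labelled Gfra2-/-, but 47 counts in endosteal library B and 9 in endosteal library D of that genotype. These 2 libraries held more Gfra2 reads than any WT library, so the text speaks of libraries labelled Gfra2-/-. Since WT itself had so few counts, Gfra2 reads cannot show the genotype of a library. Without these 2 libraries 0 genes passed the FDR. Spike-in reads made up 0.192% to 0.421% of 4 libraries, 1 in each group, and 0.764% to 7.10% of the other 11. In bulk samples, fewer cells of a type and less RNA per cell cannot be told apart.

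H19 was the gene with the smallest p. It is an imprinted long noncoding RNA, expressed from the maternal allele and known to restrain growth in the embryo and in adult HSCs. The gene (ENSMUSG00000000031) lies on chromosome 7 of GRCm38 from 142575529 to 142578143 on the minus strand. An exon of H19 holds the hairpin of miR-675, and reads that lie in both cannot be told apart. The mature miRNAs of that hairpin are printed since they are the product through which H19 is known to act on growth genes. Capitals mark the seed, bases 2 to 8, and both sequences come from RefSeq on GRCm38 (chromosome 7, minus strand).
mmu-miR-675-5p: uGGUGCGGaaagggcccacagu
mmu-miR-675-3p: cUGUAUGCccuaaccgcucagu
The first spans 142577112 to 142577133 and the second 142577078 to 142577099. Their seeds, GGUGCGG and UGUAUGC, differ. The libraries do not measure mature miRNAs.

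In WT, 1, 0, 0 and 0 reads of H19 were counted in endosteal libraries A to D, against 9, 182, 0 and 116 in central libraries A to D. In endosteal libraries labelled Gfra2-/- it had 0 counts in all 4, and in the central ones 252, 46 and 59 counts. Only WT central library C, which had the smallest gene total, lacked H19 among the central samples, and 1 read was found in all 8 endosteal libraries. As CPM (counts relative to the TMM-normalised total of the library) the mean was 26.4 ± 26.8 in WT central (SD, n = 4) and 9.39 ± 6.20 in central samples labelled Gfra2-/- (SD, n = 3). On the summed reads, H19 was 1639-fold higher in central than in endosteal WT HSCs (95% counting interval 291.9 to 64930). In libraries labelled Gfra2-/- it was at least 192.4-fold higher in central HSCs, against the 3 counts that a count of 0 over the group allows. The additive fit gave a log2 difference, endosteal minus central, of -9.22 ± 1.35 (SE, FDR = 0.0273, edgeR), a value that depends on the prior count. Without WT central library B the FDR was 0.104, and without endosteal library B labelled Gfra2-/- it was 0.102. With depth as a covariate H19 kept its call (-10.12, FDR = 0.0584), as it did with spike-in size factors (-10.03, FDR = 0.0105), and it was the only one of the 4 genes to do so.

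Clec7a encodes Dectin-1, a lectin receptor of myeloid cells that binds β-glucan of fungal walls. The gene (ENSMUSG00000079293, chromosome 6 from 129461591 to 129472779, minus strand) is annotated as a polymorphic pseudogene. It had 0 counts in all 4 WT endosteal libraries, and central WT libraries A to D held 3, 7, 7 and 1 reads. In libraries labelled Gfra2-/- the endosteal samples held 1, 0, 0 and 0 reads and the central ones 0, 73 and 79 reads. In WT the groups did not overlap but rested on few reads, whereas in libraries labelled Gfra2-/- central library A lay with the endosteal ones. Clec7a was at least 32.03-fold higher in central WT HSCs and 245.8-fold higher in central HSCs labelled Gfra2-/- (95% counting interval 43.45 to 9771). The additive difference was -7.72 ± 1.34 on the log2 scale (SE, FDR = 0.0794). The call was kept in 3 of the 12 fits that left out 1 library and could test the gene, those without WT endosteal library A, WT central library D and central library A labelled Gfra2-/-, and without WT endosteal library C the FDR was 0.241. It was also lost with depth as a covariate (FDR = 0.547) and with spike-in size factors (FDR = 0.177).

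Gm42418 is annotated as a long intergenic noncoding RNA (ENSMUSG00000098178, chromosome 17 from 39846958 to 39848788, plus strand). Its exons overlap AY036118 and CT010467.1, so reads in the overlap can be set aside as ambiguous. The level and origin of its reads are uncertain for that reason. Its level was 913, 496, 444 and 451 CPM in WT endosteal libraries A to D and 5778, 2327, 6581 and 1929 CPM in WT central libraries A to D. In libraries labelled Gfra2-/- it was 203, 93.2, 201 and 105 CPM in endosteal and 189, 248 and 978 CPM in central samples. The WT groups were clearly separate, and those labelled Gfra2-/- overlapped. The log2 difference was -2.31 ± 0.40 (SE, FDR = 0.0794) in the additive fit, -2.81 ± 0.40 within WT and -1.65 ± 0.58 within libraries labelled Gfra2-/-. Gm42418 was the only gene past the FDR within WT (FDR = 0.099). The additive call was kept without WT endosteal A, WT central D, or endosteal A, endosteal C, central A or central B labelled Gfra2-/-, and lost without each of the other 9 libraries, with an FDR of 0.305 without central C labelled Gfra2-/-. With depth as a covariate the difference of Gm42418 was -1.05 (FDR = 0.985) and with spike-in size factors -1.80 (FDR = 0.999), so the call was lost in both.

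Rplp1 encodes an acidic protein of the ribosomal stalk, which recruits translation factors. The gene (ENSMUSG00000007892) lies on chromosome 9 from 61913284 to 61914542 on the minus strand. It had 1729, 947, 821 and 1047 CPM in WT endosteal libraries A to D and 2948, 2528, 3055 and 1982 CPM in WT central libraries A to D. In libraries labelled Gfra2-/- it had 628, 352, 596 and 382 CPM in endosteal and 648, 1172 and 1119 CPM in central samples. Every central library of a genotype exceeded every endosteal library of that genotype. The genotypes were offset, so that WT endosteal libraries reached the range of central libraries labelled Gfra2-/-. Rplp1 was lower in endosteal HSCs by -1.11 ± 0.20 on the log2 scale (SE, FDR = 0.0849), with -1.17 ± 0.25 within WT and -1.0 ± 0.30 within libraries labelled Gfra2-/-. The call was kept without WT endosteal A, WT central D, or endosteal A, endosteal C or central A labelled Gfra2-/-, and lost without each of the other 10, with an FDR of 0.241 without WT endosteal C. With depth as a covariate the difference of Rplp1 was -0.71 (FDR = 0.862) and with spike-in size factors -0.57 (FDR = 0.999), so the call was lost in both.

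**Figure D1:**
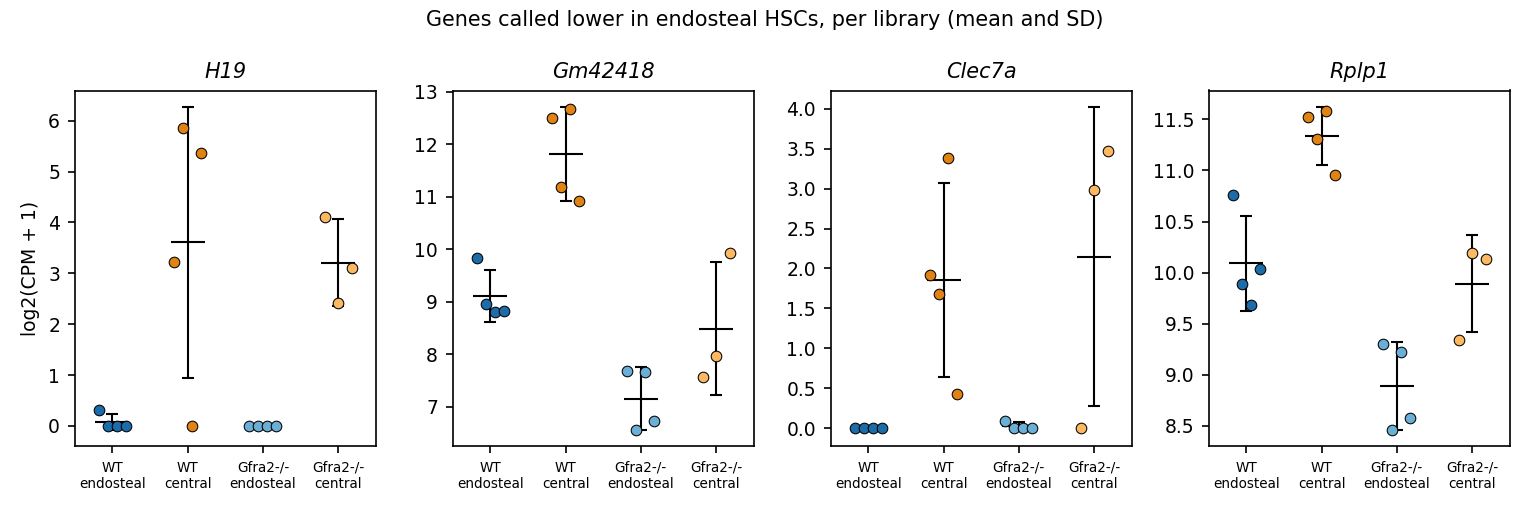
Level of the 4 genes past the FDR, as log2(CPM + 1), in each library of the 4 groups, with the mean and SD as bars. H19 and Clec7a lie at or near 0 in all 8 endosteal libraries, and Rplp1 is higher in the central libraries of each genotype.

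In the libraries with a low spike-in share, 1 per group and part of the data that chose the 4 genes, each of them was lower in the endosteal library of each genotype, for Clec7a in WT by 1 read. In the 11 other libraries alone 0 genes passed the FDR, and H19 had an FDR of 0.495. The genes next to the threshold were Rplp1 inside it (FDR = 0.0849) and Pqlc2, a lysosomal exporter of cationic amino acids, outside it (FDR = 0.118). The count depended on the tool, since DESeq2 called 302 genes, 184 lower and 118 higher, and these included all 4, while limma voom called 35, 24 lower and 11 higher, and included 3 of the 4. Within libraries labelled Gfra2-/- edgeR called 0 genes (722 at an unadjusted p under 0.05, DESeq2 148), and for the interaction of genotype and compartment it also called 0 (842 at an unadjusted p under 0.05, DESeq2 105).

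Among the 13789 genes, 1119 had an unadjusted p under 0.05 in the additive fit, 482 lower (3.5%) and 637 higher (4.62%) in endosteal HSCs. The comparisons within WT and within libraries labelled Gfra2-/- have no library in common. Within both, 95 genes had an unadjusted p under 0.05. Of these, 37 were lower in both (0.268% of the genes tested), 37 were higher in both (0.268%) and 21 moved in opposite directions. The 74 genes of 1 direction were 5.82% of the 1271 WT genes and 10.2% of the 722 genes of libraries labelled Gfra2-/-. Of all genes tested, 54.7% had the same sign in both genotypes, against 60.1% of the WT genes at p under 0.05. Across genes, which are not independent replicates and share depth and amplification, Pearson's r of the log2 differences was 0.078 and Spearman's rho 0.108.

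**Figure D2:**
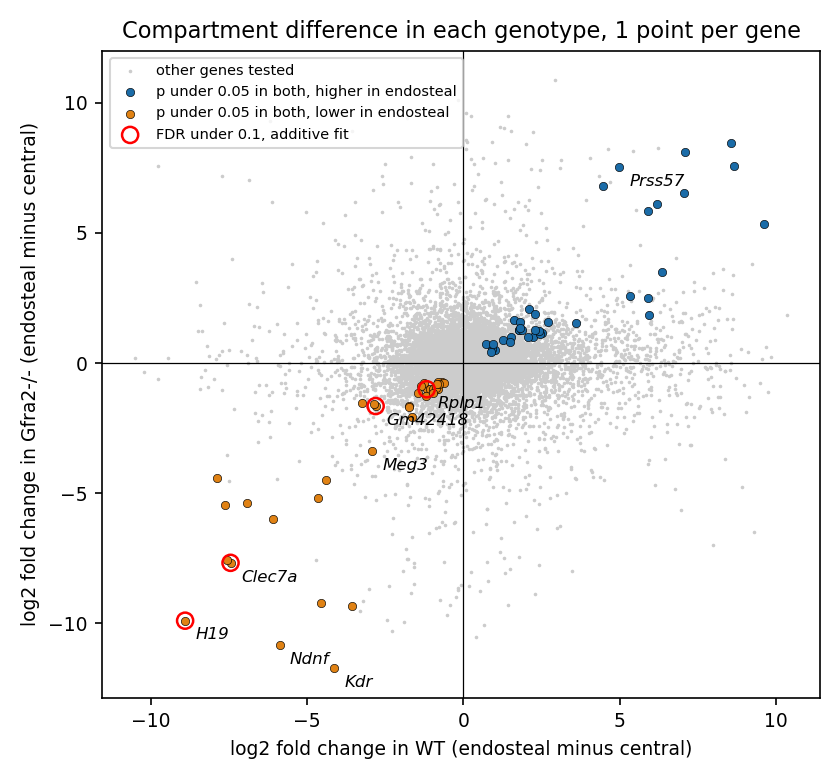
Log2 difference, endosteal minus central, of the 13789 genes tested within WT (x axis) and within libraries labelled Gfra2-/- (y axis). Grey points are all genes, coloured points the 37 genes lower and the 37 higher in both genotypes, and the cloud as a whole has a Spearman's rho of 0.108.

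The shared genes were also described by features that the rule did not use. Of the 37 lower genes 75.7% were protein coding, of the 37 higher genes 89.2%, and of all genes tested 81.2%. The lower genes had a median summed exon length of 2477 bases and the higher ones 3387, against 3910 over all genes with a length. Their median mean level was 115 and 62.2 CPM, against 30.7 over all genes tested. These values are a description, since a p under 0.05 in both genotypes is more readily reached by well covered genes. For 5 of the 74, among them Rad9a, Kdr, Tada1 and Gm42482, the interaction had an unadjusted p under 0.05, so their sizes differed between the genotypes at that level. The exons of Rad9a overlap those of Ppp1ca.

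A stricter description asks that all 8 endosteal libraries lie on 1 side of all 7 central libraries, whatever the genotype. This held for 5 lower genes (0.0363% of those tested), namely Meg3, Neil2, Soga1, Arid4a and Rbpj-ps3. It held for 15 higher genes (0.109%), among them Cnbp, Eif5a and Gm15497. For Gm15497 and Neil2 the separation in WT rested on few reads. Gm15497 had 3, 16, 7 and 27 reads in WT endosteal libraries A to D and 0 in all WT central ones. Neil2 had 0, 0, 0 and 3 reads in WT endosteal and 3, 42, 50 and 7 in WT central libraries A to D. Neil2, Soga1, Arid4a and Rbpj-ps3 were named after their values were seen.

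Imprinted genes were the group to which H19 belongs. Meg3, a maternally expressed long noncoding RNA of the Dlk1-Dio3 locus that is known in fetal and adult HSCs, followed the same pattern at a higher level. The gene (ENSMUSG00000021268, chromosome 12 from 109541001 to 109571726, plus strand) holds miR-770 within an exon and overlaps Mir1906-1, Gm26906 and Gm27300. Its mature miRNAs have the seeds GCACCAC and GUGGGCC, which neither product of H19 shares, and are printed with the seed in capitals (chromosome 12, plus strand, 109563710 to 109563731 and 109563744 to 109563765).
mmu-miR-770-5p: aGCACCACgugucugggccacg
mmu-miR-770-3p: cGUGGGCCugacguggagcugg

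Meg3 had 10.02, 19.5, 1.54 and 4.21 CPM in WT endosteal libraries A to D and 93.2, 70.8, 43.3 and 65.9 CPM in WT central libraries A to D. In libraries labelled Gfra2-/- it had 9.89, 0.101, 24.5 and 2.20 CPM in endosteal and 78.3, 97.3 and 108 CPM in central samples. The highest endosteal library lay below the lowest central one. The log2 difference was -3.15 ± 0.74 (SE), -2.92 within WT and -3.37 within libraries labelled Gfra2-/-, and the FDR of 0.226 missed the threshold. Rian, the next noncoding RNA of the same locus, had 0 to 0.335 CPM in WT endosteal and 0 to 23.0 CPM in WT central libraries. In libraries labelled Gfra2-/- it had 0 to 3.0 CPM in endosteal and 7.44 to 14.3 CPM in central samples. Rian differed by -4.57 ± 1.43 (SE, FDR = 0.394), and its WT groups overlapped.

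Of 27 imprinted genes listed, 19 were tested, 4 had an unadjusted p under 0.05 and were lower (against 3.5% of all genes tested), 0 were higher at that level (against 4.62%), and 11 were lower in sign within each genotype. Their median log2 difference was -0.51, against 0.06 over all genes tested. The list was chosen with earlier results of these data known, so its median does not stand as separate evidence.

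The promoter of Meg3 contains a TATA box, found as the letters TATAAA in the window from 250 bases before to 50 bases after the start (RefSeq, GRCm38.p6, either strand searched). It begins 25 bases before the start and is shown in capitals within chromosome 12 from 109540946 to 109541001, plus strand.
Meg3: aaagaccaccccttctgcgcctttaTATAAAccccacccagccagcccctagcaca
Of the 37 shared lower genes 22 had a window, and 2 of these (Clec7a and Meg3, 9.09%) held the letters, against 8.31% of 9334 tested genes with a window. That share was close to the background.

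Genes that mark vessel and stromal cells stood among the 37 shared lower genes. Kdr encodes VEGFR2, the main VEGF receptor of endothelium. It had 0, 0.134, 1.63 and 6.36 CPM in WT endosteal and 130, 3.77, 6.77 and 10.7 CPM in WT central libraries A to D. In libraries labelled Gfra2-/- it had 0 counts in all 4 endosteal samples and 3.43, 63.7 and 33.1 CPM in central samples, at least 532.5-fold higher on the summed reads. The groups of this genotype were separate, those of WT overlapped, and the difference of -6.65 ± 1.64 on the log2 scale did not pass the FDR (0.239).

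Ndnf, which encodes a secreted factor that acts on neurons and vessels, had 0, 0, 4 and 0 reads in WT endosteal libraries A to D, against 0, 65, 5 and 1 in WT central libraries. In libraries labelled Gfra2-/- it had 0 counts in all endosteal and 44, 392 and 107 counts in central samples. Ndnf was at least 292.7-fold higher in central HSCs of that label, and its additive FDR was 0.132. Pdgfrb, the PDGF receptor of pericytes and stromal cells, had 0 to 10.5 CPM in WT endosteal, 0.923 to 302 CPM in WT central, 0 to 1.27 CPM in endosteal and 2.73 to 25.6 CPM in central libraries labelled Gfra2-/- (FDR = 0.288). WT central library C had by far the highest Pdgfrb level of its group, and only the groups labelled Gfra2-/- were separate.

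**Figure D3:**
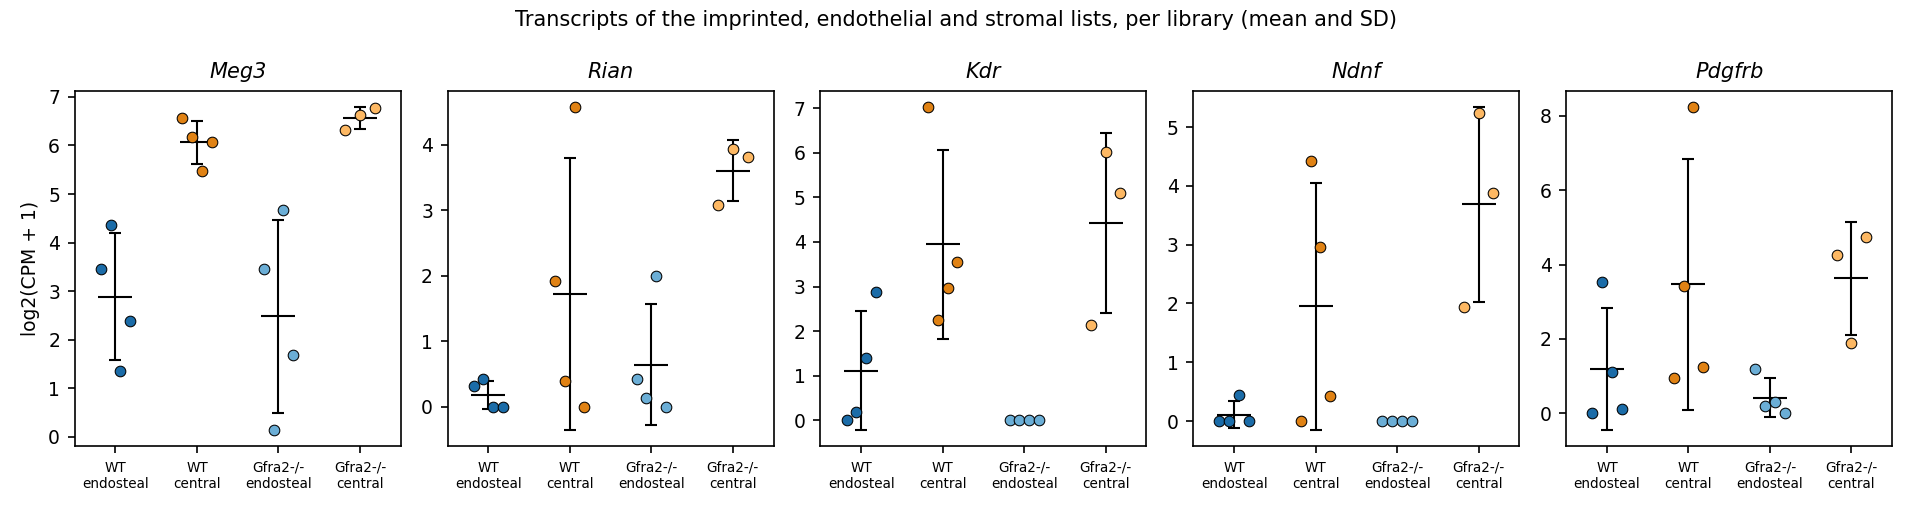
Level of Meg3, Rian, Kdr, Ndnf and Pdgfrb as log2(CPM + 1) in each library of the 4 groups, with the mean and SD as bars. Of these genes only Meg3 separates all endosteal from all central libraries, and Kdr and Ndnf are at 0 in the 4 endosteal libraries labelled Gfra2-/-.

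Of 10 endothelial markers 6 were tested. Of these, 3 (Kdr, Vwf and Tie1) were lower in endosteal HSCs at an unadjusted p under 0.05 (against 3.5% of all genes tested). At that level 0 were higher (against 4.62%), and the median was -0.80, against 0.06 over all genes tested. With spike-in size factors 0 of the 6 had an unadjusted p under 0.05, and Vwf turned to 0.17. Summed levels of a list cover all its members, tested or not, and are relative to the gene total without TMM. For the endothelial list the sum was 422.8 to 519.2 CPM in WT endosteal and 525.7 to 829.7 CPM in WT central libraries. In libraries labelled Gfra2-/- it was 262.8 to 557.5 CPM in endosteal and 643.2 to 842.4 CPM in central samples. The endothelium-defining Cdh5, Stab2, Plvap and Sox17 had too few reads to be tested, whereas Vwf and Tie1 are also made by HSCs. Of 17 stromal and bone-lining markers only 4 were tested and 5 had 0 counts in every library. Cxcl12, Lepr, Col1a1 and Bglap, which define perivascular and bone-forming cells, had too few reads to be tested. The part of such cells in the results for H19, Meg3 and Kdr was not tested.

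Fcgr2b and Fcer1g, which encode an inhibitory Fc receptor and the signalling chain of Fc receptors and of lectin receptors on myeloid cells, were among the 37 shared lower genes, with differences of -6.47 (FDR = 0.239) and -2.48 (FDR = 0.351). Both were named after their values were seen. Fcgr2b had 1 read over the 4 endosteal libraries labelled Gfra2-/- and 45, 56 and 321 counts in the central ones, a ratio of 682.4 in CPM (95% counting interval 121.8 to 27020). Ly6c2, a monocyte marker, met the weaker rule (-7.59, FDR = 0.158), but 1 library per genotype carried it. It had 361 CPM in WT central library C and 207 CPM in central library C labelled Gfra2-/-, and at most 2.77 CPM in each of the other 13. Of 12 monocyte and macrophage markers 7 were tested, with a median of -0.11. The summed level of all 12 was 387.6 to 851.1 CPM in WT endosteal and 331.1 to 2761 CPM in WT central libraries. In libraries labelled Gfra2-/- this sum was 415.3 to 768.6 CPM in endosteal and 473.5 to 1877 CPM in central samples. Depletion of mature cells and the LSK gate are meant to remove monocytes, and the part of monocytic RNA in the result for Clec7a was not tested.

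Spn encodes CD43, the leucocyte sialomucin on HSCs and most blood cells. It had 186, 113, 191 and 163 CPM in WT endosteal and 267, 337, 269 and 378 CPM in WT central libraries A to D. In libraries labelled Gfra2-/- it had 69.2, 82.0, 89.4 and 63.6 CPM in endosteal and 133, 155 and 180 CPM in central samples. Within each genotype the groups did not overlap, and the difference of -0.98 ± 0.20 on the log2 scale (SE) was almost equal in both, -0.90 in WT and -1.04 in libraries labelled Gfra2-/-. The FDR of Spn was 0.125, outside the threshold.

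Cytosolic ribosomal proteins, the building blocks of the translation machinery, were more often lower than higher in endosteal HSCs. Of 82 tested members 56 were lower in sign, 42 within each genotype. At an unadjusted p under 0.05, 25 were lower and 2 higher, against 3.5% and 4.62% of all genes tested, and Rplp1 alone passed the FDR. The median log2 difference was -0.26 in the additive fit, -0.21 within WT and -0.37 within libraries labelled Gfra2-/-, against 0.06, 0.11 and 0.03 over all genes tested. With size factors from the spike-in RNAs the median of all genes moved to 0.63 and that of the ribosomal proteins to 0.32, so the sign turned while the distance to all genes, -0.32, did not. With the library depth as a covariate that distance was -0.13, and 6 members were lower at an unadjusted p under 0.05.

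Rplp2, the partner of Rplp1 in the stalk (chromosome 7 from 141447370 to 141451585, plus strand, overlapping Snora52), had 561, 358, 333 and 385 CPM in WT endosteal and 1365, 824, 1186 and 667 CPM in WT central libraries A to D. In libraries labelled Gfra2-/- it had 249, 135, 269 and 140 CPM in endosteal and 258, 377 and 366 CPM in central samples. The WT groups were separate, and those labelled Gfra2-/- overlapped by 1 library. The difference was -1.05 ± 0.23 (SE, FDR = 0.155). Rps20, Rps15 and Rps14, proteins of the small subunit, also had an unadjusted p under 0.05 in both genotypes, with additive differences of -0.73, -0.78 and -0.70 and FDRs of 0.215, 0.239 and 0.239. Rps15 and Rps14 were named after their values were seen.

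Most ribosomal protein mRNAs start with a C followed by a run of pyrimidines, the terminal oligopyrimidine (TOP) element through which mTOR signalling is known to control their translation. With a C and at least 4 further pyrimidines asked for at the annotated start itself, 14 of 62 ribosomal protein genes with a window (22.6%) had one, against 3.06% of tested genes. The start of Rplp2 is shown from chromosome 7, 141447631 to 141447660, plus strand, with the pyrimidine run in capitals.
Rplp2: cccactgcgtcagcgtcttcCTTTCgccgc

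Of 12 tested genes for mitochondrially encoded proteins, 10 were lower in sign, 5 of them at an unadjusted p under 0.05 (against 3.5% of all genes tested), and 1 was higher at that level. The median was -0.31 with TMM scaling, and with spike-in size factors it was 0.41, still 0.22 below that of all genes. mt-Nd2, a subunit of complex I, had 2520, 1236, 1126 and 1653 CPM in WT endosteal and 4660, 4797, 6455 and 3559 CPM in WT central libraries A to D. In libraries labelled Gfra2-/- it had 753, 596, 719 and 533 CPM in endosteal and 564, 1132 and 1429 CPM in central samples. The WT groups were separate, the others overlapped by 1 library, and the difference was -1.17 ± 0.24 (SE, FDR = 0.125). mt-Nd6, which lies on the opposite strand from mt-Nd5, differed by -1.15 (FDR = 0.155). Without strand, only reads in a stretch that both genes share cannot be told apart. The share of all mitochondrial reads was 4.90% to 6.43% in WT endosteal and 6.39% to 8.24% in WT central libraries (exact permutation p = 0.0571). In libraries labelled Gfra2-/- it was 3.24% to 6.74% in endosteal and 4.97% to 7.21% in central samples (exact permutation p = 0.6), and its part in the result for Rplp1 was not tested.

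Lars2, the mitochondrial leucyl-tRNA synthetase (chromosome 9 from 123366927 to 123462666), and Gm15564, an antisense RNA of chromosome 16 (35966752 to 35983230), had nearly equal differences of -1.71 (FDR = 0.121) and -1.72 (FDR = 0.121). Over the 15 libraries Lars2 ranged from 489 to 23740 CPM and Gm15564 from 198 to 9737 CPM. The ratio of their counts nevertheless stayed between 2.41 and 2.7, a range of 1.12-fold where each gene varied 48.6- and 49.2-fold. The ratio of Gm42418 to Lars2 was looser, 0.0587 to 0.323. Whether both genes take reads from 1 similar sequence was not tested, and the level of each is uncertain for that reason.

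On the side of higher genes, edgeR passed 0 at the FDR, and 637 had an unadjusted p under 0.05. It passed 5 higher genes without a filter on low counts, 6 with at least 10 counts in every library, 1 with thinned counts and 2 in a fit of 4 group means. Cnbp, a zinc finger protein that binds nucleic acids and promotes translation, had 2152, 1895, 1851 and 1660 CPM in WT endosteal and 896, 1199, 662 and 1101 CPM in WT central libraries A to D. In libraries labelled Gfra2-/- it had 1504, 1729, 1837 and 2033 CPM in endosteal and 1307, 1275 and 1162 CPM in central samples. All endosteal libraries exceeded all central ones. The difference was 0.76 ± 0.15 (SE, FDR = 0.121), with 1.0 within WT and 0.51 within libraries labelled Gfra2-/-.

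Eif5a encodes the hypusine-bearing factor that keeps ribosomes moving through difficult stretches. It had 934, 959, 960 and 1055 CPM in WT endosteal and 572, 467, 355 and 701 CPM in WT central libraries A to D. In libraries labelled Gfra2-/- it had 995, 1107, 859 and 995 CPM in endosteal and 701, 674 and 631 CPM in central samples. The endosteal and central ranges were again separate over both genotypes, with a difference of 0.74 ± 0.15 (SE, FDR = 0.132).

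Rad9a, a subunit of the DNA damage clamp, had 7.33 to 71.7 CPM in WT endosteal and 0 to 1.35 CPM in WT central libraries, and 23.7 to 88.7 against 6.39 to 13.5 CPM in libraries labelled Gfra2-/- (3.95 ± 0.81, SE, FDR = 0.13). Both pairs of groups were separate, and the interaction had an unadjusted p of 0.016. Prss57, a serine protease of granulocyte granules whose exons overlap Fstl3, had 7.97 to 19.5 CPM in endosteal and 0 to 0.128 CPM in central libraries labelled Gfra2-/-, whereas the WT groups overlapped (FDR = 0.166). Asns, the asparagine synthetase, had 21.2 to 114 CPM in endosteal and 2.91 to 21.1 CPM in central libraries labelled Gfra2-/-. In WT it had 25.2 to 30.6 CPM in 3 endosteal libraries and 0.978 CPM in the other, against 0 to 1.35 CPM in central ones (3.75 ± 0.88, SE, FDR = 0.226). Rab31, a GTPase of endosomal traffic, and H6pd, the pentose phosphate enzyme of the endoplasmic reticulum, differed by 1.53 (FDR = 0.223) and 2.16 (FDR = 0.226).

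**Figure D4:**
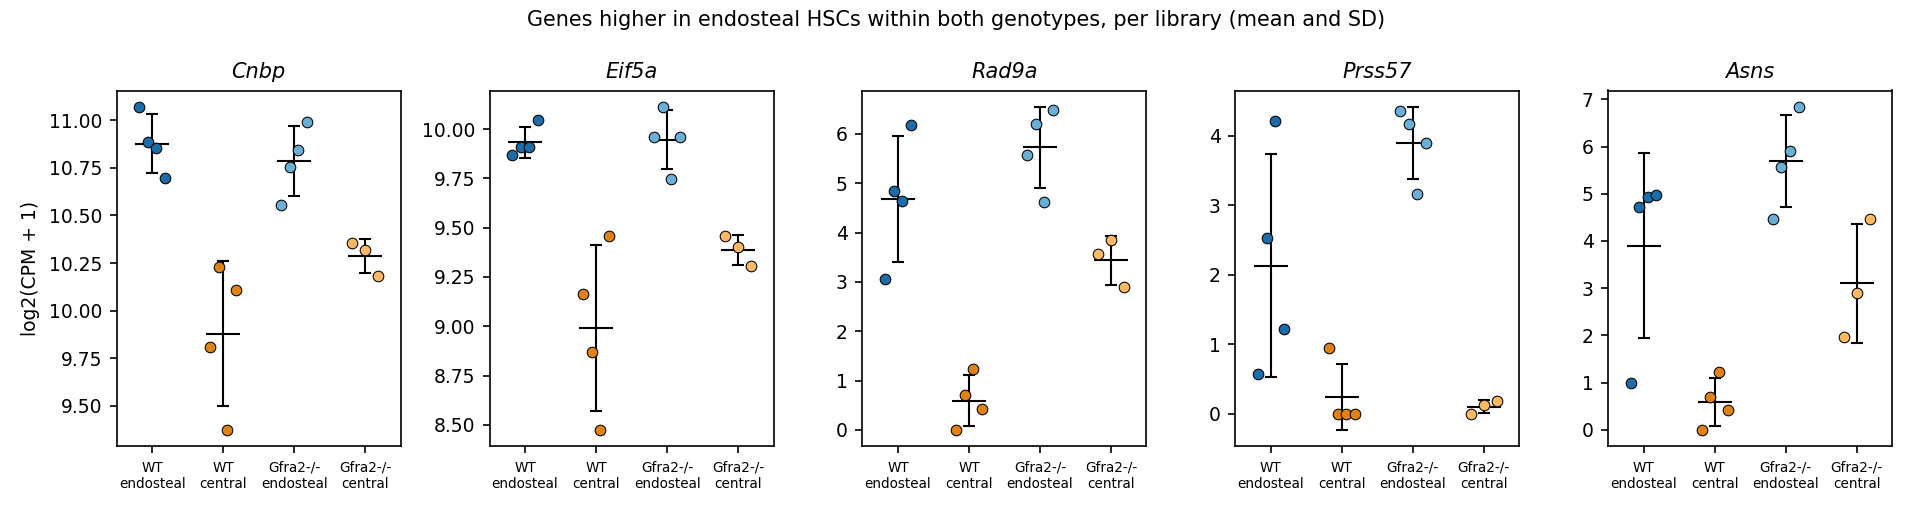
Level of Cnbp, Eif5a, Rad9a, Prss57 and Asns as log2(CPM + 1) in each library of the 4 groups, with the mean and SD as bars. The y axes do not start at 0, and for Cnbp and Eif5a the 8 endosteal points lie above the 7 central ones.

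Of the other shared higher genes, 4 are given here that were picked after their values were seen and stand for no group. Nop56 and Nop2, nucleolar proteins that modify ribosomal RNA, differed by 1.80 (FDR = 0.288) and 1.57 (FDR = 0.399). Srm, the spermidine synthase that supplies the hypusine of Eif5a, differed by 1.15 (FDR = 0.371), and Dtymk, the thymidylate kinase, by 1.07 (FDR = 0.349). The last had 144 to 200 CPM in WT endosteal and 23.0 to 140 CPM in WT central libraries, and 182 to 416 against 129 to 152 CPM in libraries labelled Gfra2-/-. Dtymk was thus separate within each genotype, whereas the WT groups of Nop56, Nop2 and Srm overlapped.

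Dtymk, Eif5a and Nop2 were the 3 of 23 shared higher genes with a window (13%) that held the E-box CACGTG, the palindrome bound by Myc and other bHLH factors. The share was 12% of 9334 tested genes and 8.09% of all 27025 genes with a window, so it lay near the background, and of 22 shared lower genes 0 held it. The stretches are shown with the E-box in capitals, on GRCm38 at chromosome 1 from 93802052 to 93802107 (minus strand), chromosome 11 from 69921430 to 69921485 (minus strand) and chromosome 6 from 125131798 to 125131853 (plus strand), beginning 148, 185 and 60 bases before a start.
Dtymk: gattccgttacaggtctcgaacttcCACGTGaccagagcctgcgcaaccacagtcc
Eif5a: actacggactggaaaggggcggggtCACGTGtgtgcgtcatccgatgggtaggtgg
Nop2: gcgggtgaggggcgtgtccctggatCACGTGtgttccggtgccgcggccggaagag

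Myc itself was higher with an unadjusted p of 0.018, at 0.91 ± 0.35 on the log2 scale (SE, FDR = 0.536). The list of G1 cyclins and kinases also held Myc and its network (Mycn, Max, Mxd1, Mxd4 and Mxi1), Cdk7 and Ccnh. Of its 14 tested genes, 4 were higher at an unadjusted p under 0.05 (among them Myc, Cdk4 and Ccnh) and 0 lower. Over all genes tested these shares were 4.62% and 3.5%. Within both genotypes 0 of the 14 were higher at that level, and the list median was -0.11. Of 25 tested genes of DNA replication and S phase, 20 were higher in sign and 15 within each genotype, 4 were higher and 0 lower by that criterion (against 4.62% and 3.5% of all genes tested), and the median was 0.48. Tyms, the thymidylate synthase, led them with 64.0 to 182 CPM in WT endosteal and 32.5 to 87.4 CPM in WT central libraries, and with 109 to 548 against 45.9 to 62.4 CPM in libraries labelled Gfra2-/- (1.49 ± 0.42, SE, FDR = 0.309). Only the second pair was separate. Of 25 tested genes of G2/M and mitosis 0 had an unadjusted p under 0.05 in either direction in the additive edgeR fit. Their medians were -1.15 within WT and 0.52 within libraries labelled Gfra2-/-.

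Of 38 tested proteasome subunits, 28 were higher in sign, 22 within both genotypes. At an unadjusted p under 0.05, 7 were higher and 0 lower, against 4.62% and 3.5% of all genes tested. Within both genotypes 0 subunits were higher at that level. Their median was 0.26, against 0.06. Psmd4, the ubiquitin receptor of the regulatory particle, had 99.9 to 167 CPM in WT endosteal and 27.1 to 139 CPM in WT central libraries, and 140 to 196 against 57.2 to 85.9 CPM in libraries labelled Gfra2-/- (1.07 ± 0.32, SE, FDR = 0.371). Psmd6, another subunit of that particle, differed by 2.67 within WT and by 0.67 within libraries labelled Gfra2-/-, with an unadjusted interaction p of 0.0085. Of 77 tested mitochondrial ribosomal proteins, 60 were higher in sign, but only 30 within both genotypes. At an unadjusted p under 0.05, 4 were higher, a share near the 4.62% over all genes. Within both genotypes 0 were higher at that level, and the median was 0.21. The nuclear genes of oxidative phosphorylation split evenly, with 6 higher and 6 lower among 77 and a median of -0.02. None of the subunits in these 3 lists passed the FDR in edgeR.

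**Figure D5:**
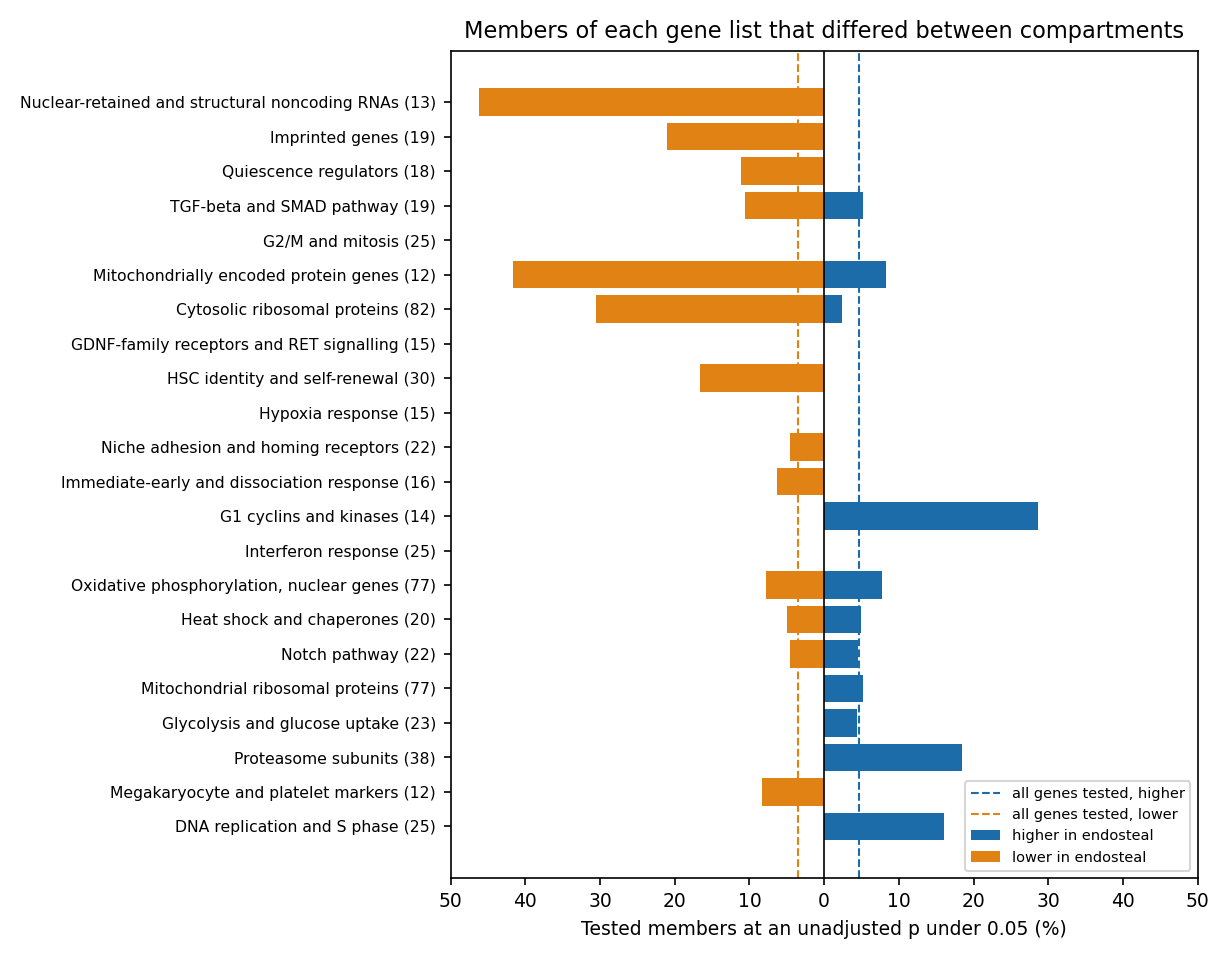
Share of the tested members of each larger gene list with an unadjusted p under 0.05 in the additive fit. Bars to the right are genes higher, and bars to the left genes lower, in endosteal HSCs. Dashed lines give these shares over all genes tested, and lists with few tested genes are left out. Structural noncoding RNAs, mitochondrially encoded genes, cytosolic ribosomal proteins, imprinted genes and HSC identity genes are among the lists past the line of lower genes. G1 cyclins and kinases, proteasome subunits and S phase genes are among those past the line of higher genes. Nuclear oxidative phosphorylation genes pass both lines.

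Among 30 tested genes of HSC identity and self-renewal, 23 were lower in sign, but only 14 within both genotypes. At an unadjusted p under 0.05, 5 were lower (against 3.5% of all genes tested) and 0 higher. Within both genotypes 0 were lower at that level. The median was -0.12 within WT and -0.44 within libraries labelled Gfra2-/-. The additive median of -0.20 moved to 0.20 with spike-in size factors, where the median of all genes was 0.63. Mllt3, a reader of histone acylation that maintains HSCs, had 129 to 219 CPM in WT endosteal and 199 to 466 CPM in WT central libraries, and 199 to 276 against 462 to 502 CPM in libraries labelled Gfra2-/- (-0.78 ± 0.21, SE, FDR = 0.285). The WT groups overlapped, and those labelled Gfra2-/- were separate. Of 18 tested quiescence regulators 2 were lower (unadjusted p under 0.05), among them Foxo1 by -1.65, and 0 higher at that level, with a median of -0.38. The value of Foxo1 was -0.98 without WT central library A, -0.78 with depth as a covariate and -0.74 with spike-in size factors. Of 6 tested markers of the sort gate 0 had an unadjusted p under 0.05 in the edgeR fit, and Kit differed by 0.21 ± 0.17 (SE, FDR = 0.796).

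Erythroid markers were the list with the largest positive median, 2.21 over 8 tested genes, 4 of them higher (unadjusted p under 0.05, against 4.62% of all genes tested) and 0 lower at that level. The median was smaller within each genotype, 1.46 in WT and 1.0 in libraries labelled Gfra2-/-. In sign 7 were higher within both genotypes, but 0 had an unadjusted p under 0.05 in both. The summed level of all 13 erythroid markers listed, tested or not, was 1222 to 1664 CPM in WT endosteal and 723.5 to 915.3 CPM in WT central libraries. In libraries labelled Gfra2-/- this sum was 2049 to 2926 CPM in endosteal and 1253 to 2429 CPM in central samples. Car2, carbonic anhydrase 2, made up most of it and differed by 0.55 ± 0.16 (SE, FDR = 0.362). Klf1, the erythroid transcription factor, had 1.27 to 28.4 CPM in endosteal libraries labelled Gfra2-/- and at most 0.194 CPM in the central ones, but 0 to 1.81 CPM in WT endosteal and 0 counts in WT central libraries (FDR = 0.263). Its shared direction thus rested on 22 counts in WT. The list median was 1.12 without WT endosteal library C and 0.90 without endosteal library D labelled Gfra2-/-, each over 7 genes, and 1.12 with voom and 1.17 in libraries with a high spike-in share.

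Markers of neutrophils and B cells were uneven among libraries of 1 group. Of 14 neutrophil markers 3 were tested. All 14 summed to 159.8 to 403.5 CPM in WT endosteal and 190.2 to 3403 CPM in WT central libraries. In libraries labelled Gfra2-/- all 14 summed to 72.17 to 144.1 CPM in endosteal and 154.2 to 299.2 CPM in central samples. The 10 B cell markers, 7 of them tested, summed to 20.02 to 101.1 CPM in WT endosteal and 14.25 to 583.6 CPM in WT central libraries. In libraries labelled Gfra2-/- they summed to 54.23 to 4373 CPM in endosteal and 45.73 to 888.9 CPM in central samples. Interferon response (25 genes tested), hypoxia response (15) and GDNF-family receptors with RET signalling (15) had 0 members at an unadjusted p under 0.05 in either direction, and 0 past the FDR in edgeR.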

How the data were processed

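HSCs were sorted in pools of 30 and sequenced after the Smart-seq2 protocol (single-end reads of 50 bp, no molecular identifiers). The authors aligned the reads with GSNAP to mm10 with the Ensembl 38.81 annotation, counted them per gene without strand with HTSeq (0.5.3p3) and deposited raw counts for 46078 genes, together with 92 spike-in RNAs and 5 categories of unassigned reads. Only gene counts were tested. A further column (1) of the count table could not be matched to a group and was not used. Columns name a group but no replicate, and nothing ties a library to a mouse, so p-values measure the spread between these samples, which may be technical. Names, positions and overlaps came from GENCODE M21 (45229 of the genes), and promoter windows and miRNAs from RefSeq.

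The main test was the quasi-likelihood test of edgeR 4.0.16 (R 4.3.3) with genotype as a covariate, filterByExpr, TMM and a Benjamini-Hochberg FDR of 0.1 over all 13789 genes; fits within each genotype and of the interaction used the same genes. Differences are endosteal minus central. The SE of a difference was calculated as its size divided by the square root of the F statistic of the test. It is only approximate for genes with counts near 0. The common biological coefficient of variation was 0.988. Single measures of libraries were compared by exact permutation (scipy 1.17.1, Python 3.11.15). The fit was tested on simulated data. Gene totals ran from 826487 to 18550008, and counting intervals (95%) and the floor of 3 counts cover counting error only, since PCR reads are not independent molecules.

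Genes were named by rule: the genes past the FDR with the same sign within both genotypes, then genes with an unadjusted p under 0.05 in both, up to 10 per direction, and the 3 members of each list with the smallest p. Members and lists were chosen with earlier results of these data known. Alternatives were DESeq2 1.42.0, limma 3.58.1 voom with quality weights, DESeq2 and spike-in size factors, other filters, thinned counts, depth and spike-in share (cut at 0.5%) as covariates, group means, subsets of libraries and each library left out. Some genes that this rule picks are not reported here.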

Additional observations from a re-analysis of the deposited data

Results flagged for a closer look

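Of 81 groups of 4 libraries examined, 3 held a library far from the other 3 by Dixon's test. Genes were examined on the log2(CPM + 1) scale and library measures on their own scale. Gene groups with a log2 range under 1 could not be flagged, so the usual rate of about 1 in 20 does not hold for all 81. Gm42418 stood at 913 CPM in WT endosteal library A, against 444 to 496 CPM in the other WT endosteal libraries. Gm15497 stood at 14.5 CPM in endosteal library D labelled Gfra2-/-, against 0.858 to 1.54 CPM. Asns stood at 0.978 CPM in WT endosteal library A, against 25.2 to 30.6 CPM, so that this library lay with the central ones.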

How the results depend on the processing

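The additive count of 4 genes became 1 at an FDR of 0.05, 302 with DESeq2, 35 with voom, 8 with DESeq2 size factors, 30 without a filter, 22 with at least 10 counts in every library, 10 with thinned counts, 0 in libraries with a high spike-in share, 1 in libraries past the quality cut-offs and 0 without the 2 libraries with Gfra2 counts, an alternative chosen after seeing the data. It was 3 with spike-in size factors, 3 with depth as a covariate and 4 with group means, of which 1, 1 and 2 were among the 4 genes. With a low or high spike-in share as a covariate, which is no recorded batch, it was 4, and these were the same 4. Genes higher in endosteal HSCs made up 118 of the calls with DESeq2, 11 with voom, 5 without a filter, 6 with at least 10 counts, 1 with thinned counts and 2 with group means. Calls with 1 direction in both genotypes had the same counts except 294 with DESeq2. The 74 shared genes became 114 with voom, 42 with spike-in size factors, 190 without a filter, 46 with at least 10 counts, 35 with depth as a covariate, 40 with a high spike-in share and 44 without the 2 libraries. With DESeq2 the counts within WT, within libraries labelled Gfra2-/- and for the interaction were 376, 148 and 105, and thinned counts gave 4 within WT. Leaving out 1 library gave 0 to 8 additive calls, 53 to 96 shared genes, 0 to 7 calls within WT and 0 within libraries labelled Gfra2-/- and for the interaction. The additive count was 0 without WT central B or endosteal B labelled Gfra2-/-, and 8 without WT endosteal A or central A labelled Gfra2-/-. H19 ranged from -10.12 to -7.49 over the other alternatives. The sign turned for Vwf (0.17), mt-Nd4 (0.030) and Rbpj (0.11) with spike-in size factors and for S100a9 (1.5) with a high spike-in share. The cause was not tested. No paired analysis was possible because the table's columns name the group of a library without a replicate number. Genes with few reads in WT central libraries limit the depth at which a shared change could be seen.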
